A study of Mus musculus with 18 samples.

Results

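The Zfp9xx zinc finger genes are the mouse genes whose symbol is Zfp9 followed by 2 more digits. Matching the gene table of the deposited count matrices to that pattern, a rule on names, gave 63 members among 31053 genes. All 63 are annotated as protein coding (GENCODE M21, GRCm38). Most proteins of this kind carry an array of C2H2 zinc fingers, each of which reads a few bases of DNA, and many also carry a KRAB domain. KRAB zinc finger proteins bind transposable elements and some imprinted regions and recruit the cofactor TRIM28 (KAP1), which brings the histone methyltransferase SETDB1 and, in early embryos, DNA methylation to the bound site. Their genes arose by repeated duplication, lie in clusters and differ widely between species, which is why neighbouring members can be nearly identical in sequence.

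The cells came from 18 libraries, each labelled as a single mouse embryo at embryonic day 8.5, profiled by droplet 3′ single-cell RNA-seq, with 7 labelled wildtype (WT) and 3, 4 and 4 labelled knockout for Dnmt1 (Dnmt1 KO), for Dnmt3a (Dnmt3a KO) and for Dnmt3b (Dnmt3b KO). Each KO group is labelled null for 1 DNA methyltransferase gene in the whole embryo, from matings of heterozygous parents, and the strain is recorded as 129S4/SvJae throughout. DNMT1 copies methylation onto newly replicated DNA, whereas DNMT3A and DNMT3B set new methylation. The libraries held 1628 to 15427 barcodes with at least 1500 mouse UMIs (unique molecular identifiers, each 1 captured RNA molecule), and depth ran from 38742721 to 262580123 UMIs. The libraries labelled Dnmt3b KO 1 and 2 shared 12249 barcodes, against at most 133 for any other pair, and were therefore added together as 1 sample (Dnmt3b KO 1 and 2), which leaves 17 samples and n = 3 for Dnmt3b KO. Levels are given as CPM, the UMIs of a gene for every 1000000 mouse UMIs of a library, summed over its cells.

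The targeted genes were read first. Dnmt1 RNA fell by 2.68 (SE 0.12) on the log2 scale in Dnmt1 KO embryos, and Dnmt3a RNA fell by 1.68 (SE 0.25) in Dnmt3a KO embryos. Dnmt3b RNA was not called lower in the libraries labelled Dnmt3b KO (log2 fold change -0.00, SE 0.18), so RNA level does not check that label. Dnmt3a RNA stood at 15.1 CPM in Dnmt3b KO 11 and at 7.65 CPM in Dnmt3b KO 12, below the 32.5 CPM of Dnmt3b KO 1 and 2 and the 29.9 ± 3.65 CPM (SD, n = 7) of WT. The 4 Dnmt3a KO embryos stood at 7.59 to 11.8 CPM, so Dnmt3b KO 12 lay within their range and Dnmt3b KO 11 between theirs and that of WT. Directions for this group are given for the libraries as labelled, and the value of Zfp936 against WT and the count against Dnmt1 KO also without these 2 libraries.

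The members fell into a few genomic blocks. Of the 63, 16 lie on chromosome 4 between 145510759 and 147848366, a stretch of 2.34 Mb. A further 13 lie on chromosome 17, 11 on chromosome 2, 8 on chromosome 7 and 5 on chromosome 8, and the other 10 are spread over 7 chromosomes. Promoter windows, 250 bases before to 50 bases after a RefSeq transcription start, were found for 53 members. The 6 windows printed here, 4 from the chromosome 4 block and 2 from chromosome 7, belong to members with more RNA in Dnmt1 KO embryos, so that the sequence shared within each set can be read. Capitals mark the stretch shared by the set, sequences run 5′ to 3′ on the gene's own strand, and the build is GRCm38.p6.
Zfp980, chr4:145670447-145670746, plus strand: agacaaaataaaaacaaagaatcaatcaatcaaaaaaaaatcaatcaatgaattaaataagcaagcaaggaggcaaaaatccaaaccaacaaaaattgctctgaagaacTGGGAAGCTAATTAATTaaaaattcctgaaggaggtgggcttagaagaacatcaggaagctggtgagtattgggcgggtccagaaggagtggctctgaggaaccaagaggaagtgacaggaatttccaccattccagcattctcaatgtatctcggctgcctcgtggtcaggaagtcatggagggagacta
Zfp981, chr4:146514670-146514969, plus strand: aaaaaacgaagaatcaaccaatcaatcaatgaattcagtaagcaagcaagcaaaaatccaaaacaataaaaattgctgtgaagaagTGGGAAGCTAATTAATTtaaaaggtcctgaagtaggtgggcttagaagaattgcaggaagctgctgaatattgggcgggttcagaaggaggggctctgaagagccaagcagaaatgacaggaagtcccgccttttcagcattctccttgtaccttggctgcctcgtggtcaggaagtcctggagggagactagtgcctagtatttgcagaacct
Zfp985, chr4:147553027-147553326, plus strand: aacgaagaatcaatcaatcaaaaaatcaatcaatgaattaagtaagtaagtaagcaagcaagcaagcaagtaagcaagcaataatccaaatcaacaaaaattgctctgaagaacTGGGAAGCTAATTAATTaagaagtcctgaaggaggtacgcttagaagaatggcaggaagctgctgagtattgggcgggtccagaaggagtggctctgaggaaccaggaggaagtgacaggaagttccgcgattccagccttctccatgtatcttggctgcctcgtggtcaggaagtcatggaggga
Zfp984, chr4:147809739-147810038, minus strand: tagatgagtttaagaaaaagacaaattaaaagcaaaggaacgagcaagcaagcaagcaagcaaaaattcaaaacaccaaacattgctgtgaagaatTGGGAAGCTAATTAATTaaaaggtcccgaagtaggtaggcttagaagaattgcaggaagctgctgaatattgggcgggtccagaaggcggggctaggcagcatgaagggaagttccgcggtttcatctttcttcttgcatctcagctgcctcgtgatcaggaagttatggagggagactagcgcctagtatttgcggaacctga
Zfp977, chr7:42592496-42592795, minus strand: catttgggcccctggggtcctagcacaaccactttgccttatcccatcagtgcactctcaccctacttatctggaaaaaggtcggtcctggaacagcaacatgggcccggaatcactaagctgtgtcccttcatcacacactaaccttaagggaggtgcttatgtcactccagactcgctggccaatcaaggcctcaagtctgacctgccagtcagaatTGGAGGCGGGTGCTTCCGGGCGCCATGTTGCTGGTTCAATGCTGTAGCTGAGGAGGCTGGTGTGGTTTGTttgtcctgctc
Zfp936, chr7:43177340-43177639, plus strand: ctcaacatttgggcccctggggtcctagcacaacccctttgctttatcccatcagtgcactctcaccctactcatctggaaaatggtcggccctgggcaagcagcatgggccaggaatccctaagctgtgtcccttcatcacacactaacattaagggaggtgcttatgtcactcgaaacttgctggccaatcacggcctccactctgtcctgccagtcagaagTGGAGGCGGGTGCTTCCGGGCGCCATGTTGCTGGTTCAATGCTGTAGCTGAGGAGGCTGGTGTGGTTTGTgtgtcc

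The 17 bases in capitals in the chromosome 4 windows, TGGGAAGCTAATTAATT, are the longest run held by the windows of all 6 chromosome 4 members that were called higher in Dnmt1 KO embryos and had a window (Zfp980, Zfp981, Zfp982, Zfp985, Zfp987 and Zfp988). Since the run was taken from those windows, its presence in them is no finding. Searched on both strands with 1 window a gene, the first listed, it was found in 8 of 27018 promoters (0.0296%), all 8 on chromosome 4. Zfp982 is not among these 8, since it has 3 windows and the one used here, which holds the run, is not the first listed. Zfp984, another member, whose rise in Dnmt1 KO embryos stayed under the fold threshold, holds it, as do the windows of Gm13212 and Zfp534, which are no members. The windows of Zfp933, Zfp979 and Zfp993, also on chromosome 4, lack it. Zfp936 and Zfp977 on chromosome 7 share 70 bases, a run found in those 2 promoters alone (0.0074%). Zfp936 shares another run of 70 bases with Zfp976, also on chromosome 7, which was not called in Dnmt1 KO embryos (log2 fold change 0.53, SE 0.18, adjusted p = 0.0301). The RefSeq window of Zfp936 lies 63361 bases from the start of the GENCODE gene, that of Zfp981 12893 bases and that of Zfp993 98112 bases. Whether these windows are other starts of the GENCODE genes of the same name was not checked.

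CG dinucleotides, the site that DNA methyltransferases act on, were counted in the windows. Members called higher in Dnmt1 KO embryos held a median of 4.5 CG (range 3 to 8, n = 10 of 15 with a window), and members tested but not called held 8.5 (range 3 to 24, n = 40). Of the 10 called windows, 6 lie in the chromosome 4 block, whose copies are related. Within that block the median was 4 for called members (n = 6) and 7 for the others (n = 4). Over all members off chromosome 4 it was 8 (n = 43). The median was 15 over 252 windows of other Zfp-numbered genes and 7 over all 27018 promoters. Of the windows printed, that of Zfp980 holds 3 CG, Zfp981 4, Zfp985, Zfp977 and Zfp936 6 each, and Zfp984 9. Methylation itself was not analysed here.

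In WT embryos the members were expressed at low levels. Together they made up 261 ± 24.1 CPM (SD, n = 7), of which the chromosome 4 block gave 50.0 ± 5.07 CPM. The members with the most UMIs were Zfp992 (14.7 ± 1.98 CPM), Zfp945 (14.4 ± 2.45 CPM), Zfp950 (12 ± 1.06 CPM), Zfp934 (11.9 ± 2.06 CPM) and Zfp942 (11.1 ± 1.65 CPM), and the ranges over the 7 embryos overlap between neighbours in this order. Counts of 3′ ends do not scale with transcript length, so these levels compare molecules captured. Zfp932, known for silencing endogenous retroviruses, stood at 10.2 ± 1.43 CPM. At the other end, Zfp935 and Zfp967 had 0 UMIs in the 7 WT libraries, Zfp969 had 1 and Zfp957 had 4, and these 4 members did not pass the filter on low counts, which leaves 59 tested members. Each 50-base word in the last 500 bases of Zfp935, Zfp967 and Zfp969 also occurs in another gene, so reads from there cannot be assigned to these 3 members alone.

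The question put to each KO group was which members differed from WT embryos, with the embryo as the replicate. A member was called when the adjusted p of edgeR's quasi-likelihood test over all 18870 genes tested was below 0.01 and its fold change, on the log2 scale, was 1 or more in size.

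Dnmt1 KO embryos had more RNA of many members. Of the 59 tested, 15 were called higher (25.4%), against 8.19% of all genes tested, and 0 were called lower, against 6.09%. At an unadjusted p below 0.05, 35 members were higher, against 23.4% of all genes, and 1 lower, against 22.6%. The median log2 fold change over the members was 0.49, beside 0.01 over all genes, and 50 of the 59 had a positive value. In 26 members (44.1%) each Dnmt1 KO embryo lay above each WT embryo, which 10.4% of all genes did, and in 1 member each lay below, which 17.6% of all genes did. Dnmt1 KO embryos also differed in the cells they held, and in a sum over a whole embryo a change in the share of a cell type and a change in RNA per cell cannot be told apart. The comparison without ectoderm and endoderm cells of extra-embryonic (ExE) kind and the comparisons within cell classes further on bear on this in part. The paper also reports a minor developmental delay of Dnmt1 mutants, which most resembled reference embryos of an earlier stage than WT did. Stage and genotype cannot be told apart here, in whole embryos or within a class.

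**Figure D1:**
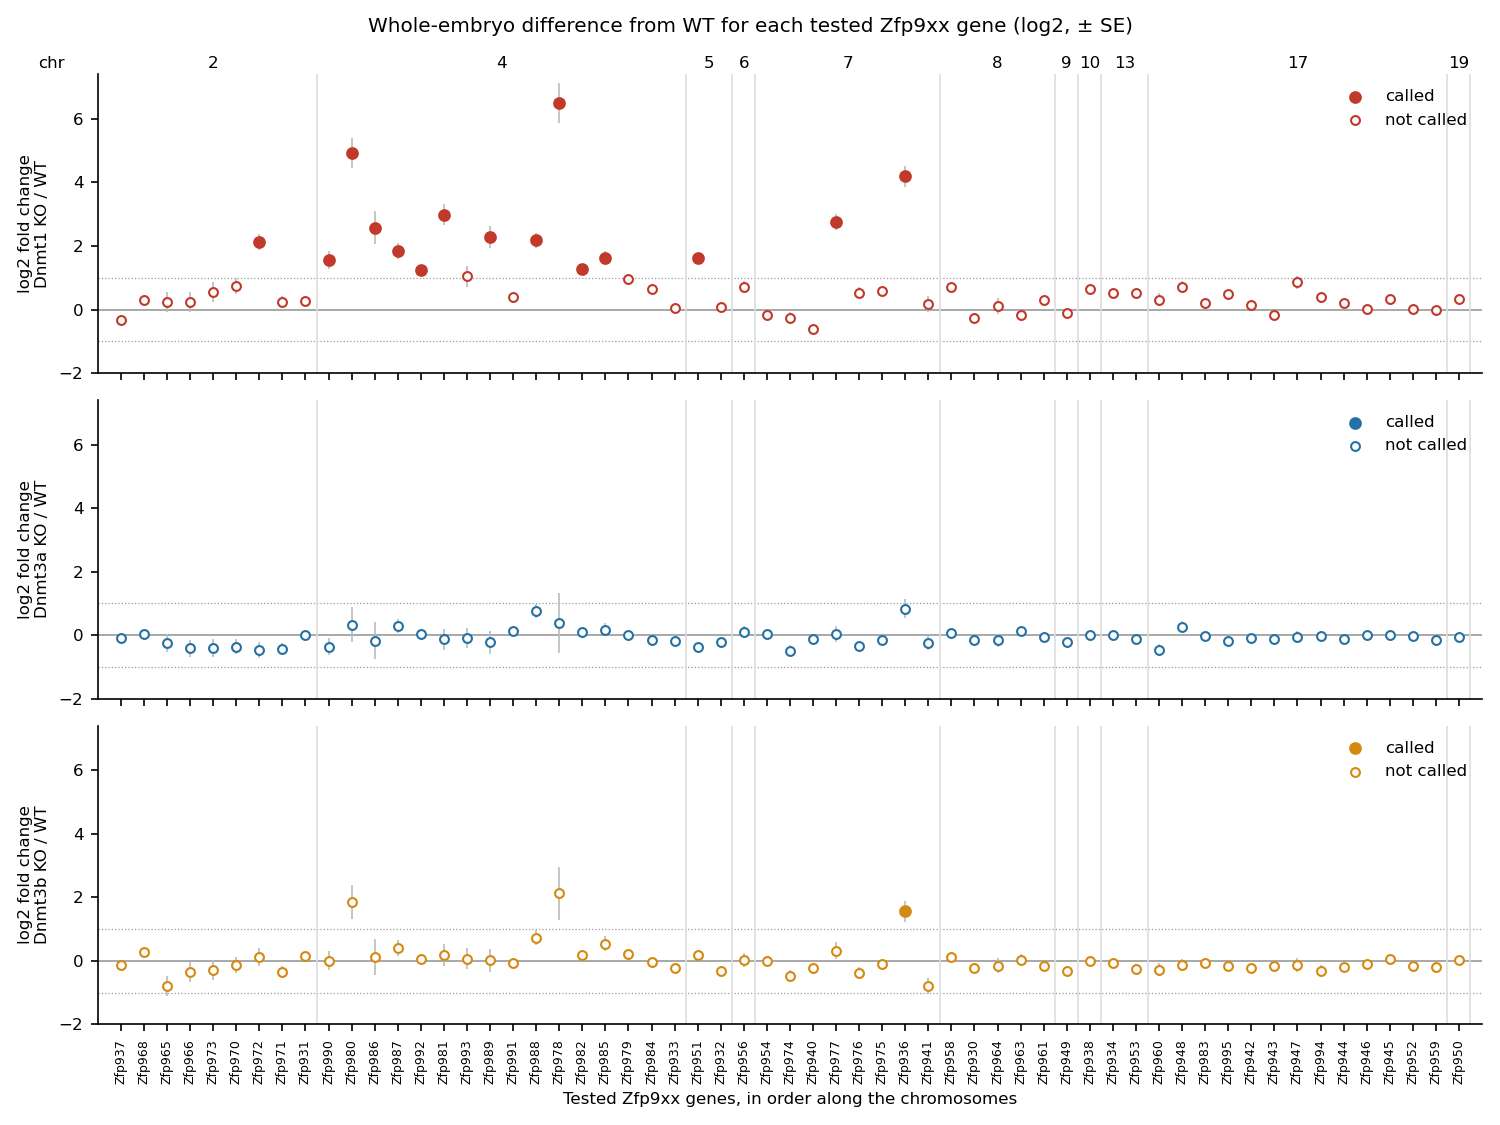
Log2 fold change of each of the 59 tested members against WT embryos (y axis) in the 3 KO groups, 1 panel each, with the members in order along the chromosomes (x axis). Filled points are called members, and the lines are 1 SE. The chromosome 4 members sit above 0 in Dnmt1 KO embryos, and 1 member, Zfp936, is called in Dnmt3b KO.

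The chromosome 4 block held most of the calls. Of its 16 members, 11 were called higher (68.8%), all 16 had a positive log2 fold change and the median was 1.59. Elsewhere 4 of 43 tested members were called (9.3%), with a median of 0.30, so that outside the block the share of called members was near the 8.19% of all genes. The medians were 0.22 on chromosome 17 (0 of 13 called), 0.26 on chromosome 2 (1 of 9), 0.35 on chromosome 7 (2 of 8) and 0.11 on chromosome 8 (0 of 5). The 4 called members outside the block were Zfp936 and Zfp977 on chromosome 7, Zfp972 on chromosome 2 and Zfp951 on chromosome 5.

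Zfp936 (ENSMUSG00000064194, chr7:43114229-43192109, plus strand) had the largest fold change of the members off chromosome 4. It ranged from 0.258 to 0.867 CPM in the 7 WT embryos with a median of 0.591 CPM, and stood at 7.14, 17.4 and 5.90 CPM in Dnmt1 KO 1, 2 and 3. All 3 mutants lay well above the highest WT embryo, and Dnmt1 KO 2 stood apart from the other 2. The log2 fold change was 4.19 (SE 0.32, 18.3-fold, adjusted p = 4.4e-08). On the same chromosome, Zfp977 (ENSMUSG00000092335, chr7:42579783-42592547, minus strand), with the shared promoter stretch, followed the same order, at 0.518 to 1.01 CPM in WT (median 0.699 CPM) and at 3.65, 7.45 and 2.42 CPM in Dnmt1 KO 1, 2 and 3. The groups did not overlap and the log2 fold change was 2.75 (SE 0.25, adjusted p = 4.5e-07).

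Zfp936 was also high in a cell class that few embryos held in number. ExE ectoderm-like cells, from which the placental trophoblast derives, made up 3.82 to 28.5% of the cells of the Dnmt1 KO libraries and 0 to 1.55% of those of WT libraries. They were 82 of 1628 cells in Dnmt1 KO 1, 1029 of 3615 in Dnmt1 KO 2 and 139 of 3635 in Dnmt1 KO 3. Dnmt1 KO 2 thus had both the highest share and the highest Zfp936 and Zfp977 levels, a link that was not tested. In these cells Zfp936 stood at 35.7 ± 3.13 CPM (SD, n = 3) in Dnmt1 KO embryos and at 28.4 CPM in WT 2, the 1 WT embryo with enough of them. Without the ExE ectoderm and ExE endoderm cells the log2 fold change of Zfp936 was 5.37 and that of Zfp977 was 2.0. All 15 members remained called without these cells, and Zfp979 and Zfp993 were called as well, for 17 in all. All other cells stayed in, among them epiblast-like cells, which were also more frequent in Dnmt1 KO libraries. Cells without a class name stayed in too, 2215 of 3635 cells in Dnmt1 KO 3.

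Zfp992 (ENSMUSG00000070605, chr4:146449023-146470292, plus strand) was the most abundant member that was called. Its WT values ran from 11.9 to 17.5 CPM with a median of 14.1 CPM, and the Dnmt1 KO values were 29.1, 27.4 and 40.4 CPM. The lowest mutant was above the highest WT embryo (log2 fold change 1.23, SE 0.13, adjusted p = 1.8e-06). Zfp982, with 2.68 to 4.84 CPM in WT (median 4.52 CPM), stood at 9.22, 8.88 and 10.5 CPM, and the groups were again apart (log2 fold change 1.27, SE 0.14, adjusted p = 3.1e-06). Zfp985 (chr4:147553277-147585198, plus strand) rose from 1.73 to 3.46 CPM in WT (median 2.27 CPM) to 6.49, 8.51 and 6.57 CPM (log2 fold change 1.61, SE 0.22, adjusted p = 2.5e-05). Zfp951 (ENSMUSG00000072774, chr5:104813169-104860070, minus strand) stood at 1.74 to 2.97 CPM in WT (median 2.61 CPM) and at 7.07, 7.29 and 7.66 CPM in Dnmt1 KO. Its 3 mutant values were close to each other and far from those of WT (log2 fold change 1.63, SE 0.14, adjusted p = 2.8e-07).

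**Figure D2:**
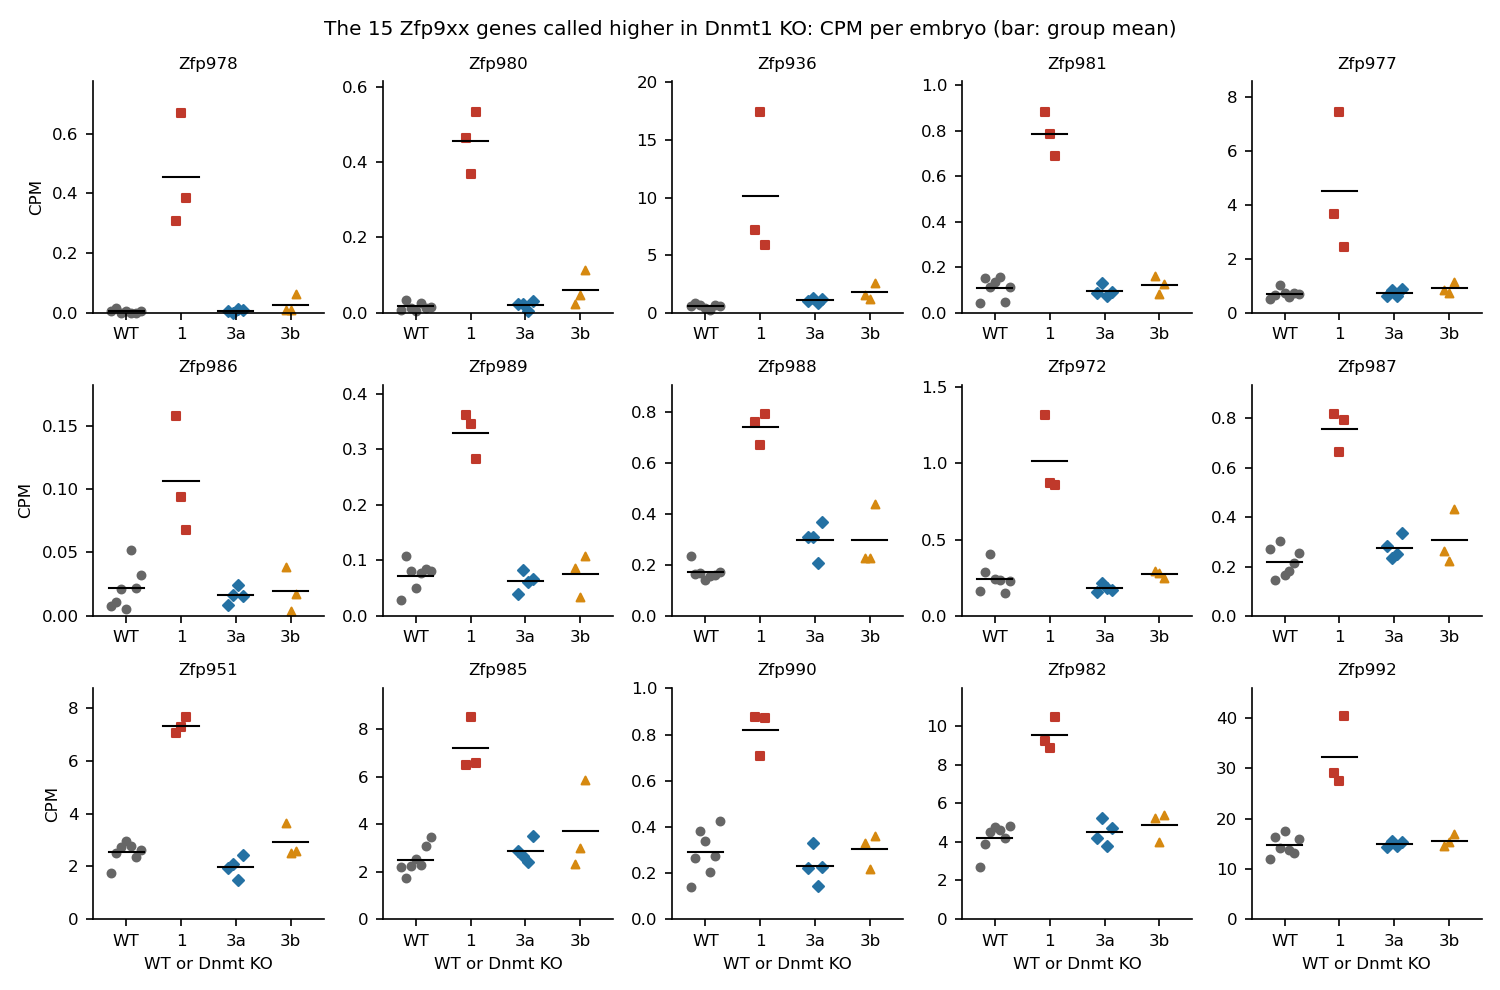
CPM of each sample (y axis, linear, from 0, with a scale of its own in each panel) for the 15 members called higher in Dnmt1 KO embryos, by group (1, 3a and 3b stand for the mutated Dnmt gene), with 1 point per sample and a bar at the group mean. The 3 Dnmt1 KO points lie above the 7 WT points in the panels shown, and the Dnmt3a KO points lie far below those of Dnmt1 KO.

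The members with the largest fold changes were nearly silent in WT embryos. Zfp978 (ENSMUSG00000078497, chr4:147361303-147391004, plus strand) had 6 UMIs in all 7 WT libraries together, with 0 in 3 of them, and 160 UMIs in the 3 Dnmt1 KO libraries. Its levels were 0 to 0.0169 CPM in WT (median 0.00395 CPM) and 0.307, 0.671 and 0.385 CPM in Dnmt1 KO, a pooled ratio of 103 (95% interval 46.4 to 286, counting error only). The fitted log2 fold change was 6.5 (SE 0.63, adjusted p = 7.7e-07). Zfp980 (chr4:145670685-145704441, plus strand) had 19 UMIs in WT and 148 in Dnmt1 KO libraries, with 0.00564 to 0.0338 CPM in WT (median 0.0133 CPM) and 0.465, 0.368 and 0.532 CPM in Dnmt1 KO. The pooled ratio was 30.2 (interval 18.7 to 51.5) and the fitted log2 fold change was 4.94 (SE 0.47, adjusted p = 5.5e-07). Zfp986 rested on 23 UMIs in WT and 36 in Dnmt1 KO, a pooled ratio of 6.06 (interval 3.5 to 10.7). Its call (log2 fold change 2.58, SE 0.52, adjusted p = 0.000894) was lost without Dnmt1 KO 1 (2.24, adjusted p = 0.0124) and with a covariate for Y-linked expression (2.69, adjusted p = 0.0298). With the libraries thinned to the smallest, Zfp986 and Zfp989 had too few UMIs to be tested.

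The other called members were also low in WT embryos. Zfp981 rose from 0.0435 to 0.155 CPM in WT to 0.883, 0.786 and 0.691 CPM in Dnmt1 KO (log2 fold change 2.99, SE 0.32). Zfp988 rose from 0.141 to 0.233 CPM to 0.762, 0.671 and 0.792 CPM (2.18, SE 0.23). The values of these members did not overlap between the groups. Zfp987 (1.84, SE 0.24), Zfp989 (2.28, SE 0.34) and Zfp990 (1.56, SE 0.28) had mutant values of 0.818, 0.664 and 0.792 CPM, of 0.362, 0.346 and 0.283 CPM and of 0.874, 0.707 and 0.872 CPM. Each was above its highest WT embryo, at 0.304, 0.107 and 0.425 CPM. On chromosome 2, Zfp972 (chr2:177903340-177925613, minus strand) stood at 0.15 to 0.406 CPM in WT and at 1.32, 0.873 and 0.86 CPM in Dnmt1 KO (2.12, SE 0.25). Without ExE ectoderm and ExE endoderm cells the log2 fold changes of Zfp987 and Zfp988 were 2.83 and 3.38.

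Zfp992 was the called member with the smallest fold change. Among members that were not called, Zfp993 lay nearest, at 1.04 on the log2 scale (SE 0.32, adjusted p = 0.0178). Zfp979 (ENSMUSG00000066000, chr4:147611937-147642513, minus strand) passed the p threshold but not that of fold change. It stood at 8.17 to 11.9 CPM in WT (median 8.62 CPM) and at 15.7, 17.4 and 19.5 CPM in Dnmt1 KO, without overlap (0.95, adjusted p = 5.7e-05). With no threshold on fold change, 31 members were higher, against 18.8% of all genes, and 1 lower, against 18%, at an adjusted p below 0.05. The lower member was Zfp940 on chromosome 7, with 3.13 to 5.81 CPM in WT and 2.94, 2.62 and 2.80 CPM in Dnmt1 KO (-0.61, SE 0.14, adjusted p = 0.00328).

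Smaller differences were spread over other chromosomes. Zfp958 on chromosome 8 (chr8:4613167-4630231, plus strand) stood at 6.47 to 9.68 CPM in WT and at 13.6, 13.8 and 12 CPM in Dnmt1 KO, so the groups were apart (log2 fold change 0.71, SE 0.10, adjusted p = 2.1e-05). On chromosome 17, Zfp948 ranged from 7.4 to 11.3 CPM in WT and read 15, 16.5 and 12.2 CPM in the mutants (0.72, SE 0.19, adjusted p = 0.00601). Zfp947, also on chromosome 17, had 1.2 to 2.27 CPM in WT and 2.89, 2.75 and 1.92 CPM in Dnmt1 KO (0.86, SE 0.20, adjusted p = 0.00317), and here Dnmt1 KO 3 lay below the highest WT embryo. Zfp984, the member on chromosome 4 that holds the shared promoter stretch without being called, had 7.11 to 9.95 CPM in WT and 12.9, 12.5 and 11.8 CPM in Dnmt1 KO, again without overlap (0.63, SE 0.11, adjusted p = 0.000205). Zfp932, the retroviral silencer, stood at 10.1 ± 0.548 CPM (SD, n = 3) in Dnmt1 KO beside 10.2 ± 1.43 CPM in WT.

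Summed over the members, Dnmt1 KO embryos held 352 to 360 CPM and WT embryos 211 to 279 CPM, so the groups did not overlap. The chromosome 4 block held 50.0 ± 5.07 CPM (SD, n = 7) in WT and 95.0 ± 10.4 CPM (n = 3) in Dnmt1 KO. The members elsewhere stood at 212 ± 20.3 CPM in WT and 260 ± 11.9 CPM in Dnmt1 KO. The groups were apart on both counts, and the sums carry no test. ExE ectoderm-like cells, which were more frequent in Dnmt1 KO libraries, held high sums in either group. Over all members these cells stood at 370 CPM in WT 2 and at 382 to 409 CPM in Dnmt1 KO, and over the chromosome 4 block at 88.3 CPM and at 105 to 112 CPM. The part of these cells in the sums over whole embryos was not tested.

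**Figure D3:**
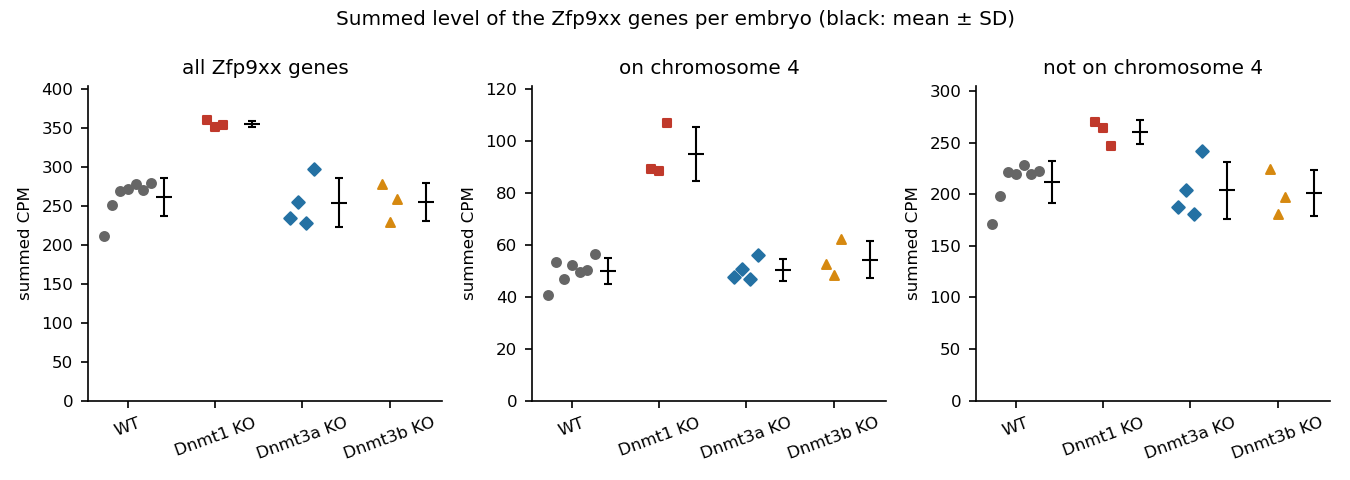
Summed CPM (y axis, from 0) of all 63 members and of the members on and off chromosome 4, by group, with 1 point per sample and black bars for the group mean and SD. Dnmt1 KO embryos lie above WT embryos in each panel, while Dnmt3a KO and Dnmt3b KO embryos overlap with WT.

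Reads from near-identical copies limit some of these values. Of the last 500 bases of the called members' transcripts, where 3′ reads fall, a median of 32.6% of the 50-base words also occurs in another gene (range 0 to 92.5%), compared with 17.3% for the tested members as a whole. In 6 called members, Zfp972, Zfp978, Zfp980, Zfp986, Zfp987 and Zfp989, it was over 50%. Zfp978 and Zfp980 share words with Zfp600, which is no member, and Zfp986 with Zfp988. How reads from the shared words were counted, or whether they were left out, was not checked. Zfp951 and Zfp992 share none, and Zfp982 (3.82%), Zfp977 (7.54%) and Zfp936 (18.7%) share few.

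Dnmt3a KO embryos showed 0 members called higher, against 0.196% of all genes, and 0 called lower, against 0.0106%. DESeq2 also called 0. At an unadjusted p below 0.05, 2 members were higher (5.59% of all genes) and 4 lower (3.82%), and the median log2 fold change was -0.10 beside 0.00 over all genes. The smallest adjusted p in edgeR belonged to Zfp988, at 0.31, 0.308, 0.209 and 0.367 CPM in Dnmt3a KO 1, 2, 13 and 14 (log2 fold change 0.75, SE 0.22, adjusted p = 0.185). The value of Dnmt3a KO 13 lay below the highest WT value of 0.233 CPM, and the other 3 lay above it. In no member did the 4 embryos all lie above the WT embryos (0 of 59, against 2.07% of all genes) or all below them (0, against 0.143%). Zfp936 stood at 0.995, 1.23, 0.817 and 1.22 CPM, of which 3 exceeded the highest WT embryo, and did not pass the test (0.83, SE 0.30, adjusted p = 0.338).

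In the libraries labelled Dnmt3b KO, 1 member was called higher (1.69%), against 1.83% of all genes, and 0 lower, against 0.0318%. The member was Zfp936, at 1.55, 1.22 and 2.58 CPM in Dnmt3b KO 1 and 2, 11 and 12, all above the WT range of 0.258 to 0.867 CPM (log2 fold change 1.55, SE 0.32, edgeR adjusted p = 0.00718). The call was near the threshold. It was lost without Dnmt3b KO 12 (1.23, adjusted p = 0.13) and without Dnmt3b KO 1 and 2 (1.67, adjusted p = 0.0104). It was also lost without WT 1, 3, 4, 5, 6 or 7 or Dnmt3a KO 1 or 14, with adjusted p values from 0.0105 to 0.0182, with the covariate for Y-linked expression (1.52, adjusted p = 0.0124) and on libraries counted on the mouse reference alone (1.74, adjusted p = 0.0299). Without Dnmt3b KO 11 and 12, which had low Dnmt3a RNA, it was 1.30 (adjusted p = 0.516), a value that rests on 1 sample, Dnmt3b KO 1 and 2, assumed to vary like the other groups. Without ExE ectoderm and ExE endoderm cells it was 2.53 (adjusted p = 0.00012). The log2 fold change was positive throughout, from 0.86 to 2.53 over 29 alternatives.

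Each Dnmt3b KO sample exceeded each WT sample in 2 members (3.39%), against 5.74% of all genes, and 0 lay below them, against 0.821%. Beside Zfp936 this was Zfp968, at 2.0, 1.90 and 2.38 CPM, whose lowest value was barely above the highest WT value of 1.90 CPM. The median log2 fold change was -0.08 beside -0.01 over all genes, with 5 members higher (10.6% of all genes) and 6 lower (7.31%) at an unadjusted p below 0.05. Zfp980 stood at 0.0223, 0.0457 and 0.112 CPM from 39 UMIs in all (log2 fold change 1.84, SE 0.53, adjusted p = 0.0623), and its lowest value lay within the WT range. Zfp941 had a log2 fold change of -0.79 and did not pass either (adjusted p = 0.0992).

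The mutants were also compared with each other in the same fit, since a call in one group and not in another is no test of their difference. Against Dnmt3a KO embryos, Dnmt1 KO embryos were higher in 16 members (27.1%), against 6.89% of all genes, and lower in 0, against 6.52%. Against the libraries labelled Dnmt3b KO they were higher in 15 members, against 3.86%, and lower in 0, against 4.98%. The median log2 differences were 0.63 and 0.67, each beside 0.02 over all genes. Zfp936 was 3.36 (SE 0.38) higher on the log2 scale than in Dnmt3a KO and 2.64 (SE 0.41) higher than in Dnmt3b KO. Zfp951 was 2.0 and 1.46 higher, and Zfp978 6.11 and 4.38 higher. These comparisons share the Dnmt1 KO embryos and so are not independent. The count against Dnmt3b KO was 10 without Dnmt3b KO 11, where Zfp982, Zfp985, Zfp986, Zfp987 and Zfp990 were lost, 8 without both 11 and 12, which leaves 1 Dnmt3b KO sample, and 9 on libraries counted on the mouse reference alone. Between Dnmt3b KO and Dnmt3a KO, 0 members were higher (0.207% of all genes) and 0 lower (0.0106%), with 2 higher (5.07% of all genes) and 0 lower (1.83%) at an unadjusted p below 0.05, and Zfp936 differed by 0.72 (SE 0.36, adjusted p = 0.784). Since Dnmt3b KO 11 and 12 had Dnmt3a RNA below the WT range, as the Dnmt3a KO embryos did, these counts do not show that loss of either gene gives the same levels. Without both, the counts were also 0, with 1 Dnmt3b KO sample left.

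Other genes of the family and its pathway were read from lists for comparison. Of 293 tested Zfp-numbered genes that are no members, 10 were higher and 10 lower in Dnmt1 KO embryos (3.41% each), with a median of -0.11, and 0 were called in Dnmt3a KO. Zfp600, which shares 3′ sequence with Zfp978 and Zfp980, was the 1 called in Dnmt3b KO (2.80, adjusted p = 0.00891), and stood 5.47 higher in Dnmt1 KO. Of 15 KRAB cofactor genes, 0 were called in any mutant, with medians of -0.03, -0.13 and -0.23 in Dnmt1 KO, Dnmt3a KO and Dnmt3b KO. Of 8 KRAB zinc finger genes with known targets, Zfp809, which silences murine leukaemia virus, was called higher in Dnmt1 KO (1.08, SE 0.18, adjusted p = 0.000149). The medians of that list were 0.05, -0.17 and -0.27, and 0 were called in the other mutants.

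The cells were then split into classes by clustering and marker genes, and the UMIs of each class were summed per embryo. Among the 17 classes held by at least 3 WT embryos, which leaves out ExE ectoderm-like and epiblast-like cells, the class with the highest WT level was the notochord and node for 15 members, ExE endoderm for 10, immune cells for 8 and forebrain and midbrain for 7. The notochord and node value rests on 26 to 41 cells in each of 4 WT embryos, and 17 members passed the filter there, so this order is a description at low depth. Almost no cells of Dnmt1 KO embryos were named here as neural, somitic or presomitic. In all 3 libraries 0 cells were named forebrain and midbrain, hindbrain and spinal cord, or neural crest. The paper, mapping cells to a reference atlas and with further embryos, reports brain, spinal cord and somitic cells as underrepresented in Dnmt1 mutants. It also states that DNA methyltransferases are not needed for any major cell type to form by this stage. Expression changes in somitic mesoderm of Dnmt1 mutants are reported there too. The near absence found here differs from that account, and what part the naming by markers has in it was not tested. Enough Dnmt1 KO and WT embryos held at least 25 cells for a comparison in 5 classes. These were ExE endoderm, ExE mesoderm, endothelium, gut endoderm and immune cells. A cluster of ExE endoderm led by Apob and Cubn and a cluster of ExE mesoderm led by Tdo2 and Nrp1 drew 95.7% and 95.8% of their cells from Dnmt1 KO libraries, so the values of these classes set partly different clusters against each other.

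Over the 5 classes, 28 of 207 pairs of member and class were called higher in Dnmt1 KO embryos (13.5%), against 3.96% of all gene and class pairs, and 1 was called lower, against 3.74%. The 28 pairs called higher belong to 13 members, of which Zfp934, Zfp945, Zfp958, Zfp979, Zfp984 and Zfp993 were not called in the whole embryo. Of the members called in the whole embryo, Zfp978, Zfp980, Zfp981, Zfp986 and Zfp989 were tested in no class. Zfp972 (log2 fold change 1.15), Zfp987 (-0.66) and Zfp988 (-0.33) were tested in 1 class each and not called. The class comparisons thus give no call for these members. In ExE mesoderm 8 of 46 were higher (4.92% of all genes) and 0 lower (4.18%), in endothelium 9 of 43 were higher (3.91%) and 1 lower (4.24%), and in gut endoderm 6 of 44 were higher (4.43%) and 0 lower (3.24%). In ExE endoderm, which lines the yolk sac, 2 of 53 were higher (3.49%) and 0 lower (2.37%), and in immune cells 3 of 21 were higher (2.71%) and 0 lower (5.33%). The median log2 fold changes lay between 0.35 and 0.54. Leaving out each library in turn kept 16 of the 28 calls, and Zfp990 in endothelium was kept in the 11 of 17 such fits that gave a value. Lost without at least 1 library were Zfp936 in ExE endoderm, Zfp977, Zfp979, Zfp985 and Zfp993 in ExE mesoderm, Zfp951, Zfp982 and Zfp984 in endothelium, Zfp982 in gut endoderm, and Zfp945 and Zfp979 in immune cells. Of these, Zfp982 in endothelium was lost in the most fits, 10, with log2 fold changes from 1.09 to 1.36 and adjusted p values up to 0.0626, the last without Dnmt1 KO 1. Zfp985 in ExE mesoderm was lost in 7 (up to 0.049, without Dnmt1 KO 1), and Zfp984 and Zfp951 in endothelium in 1 each, without Dnmt1 KO 2 (0.98) and Dnmt1 KO 1 (1.12, adjusted p = 0.0276).

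**Figure D4:**
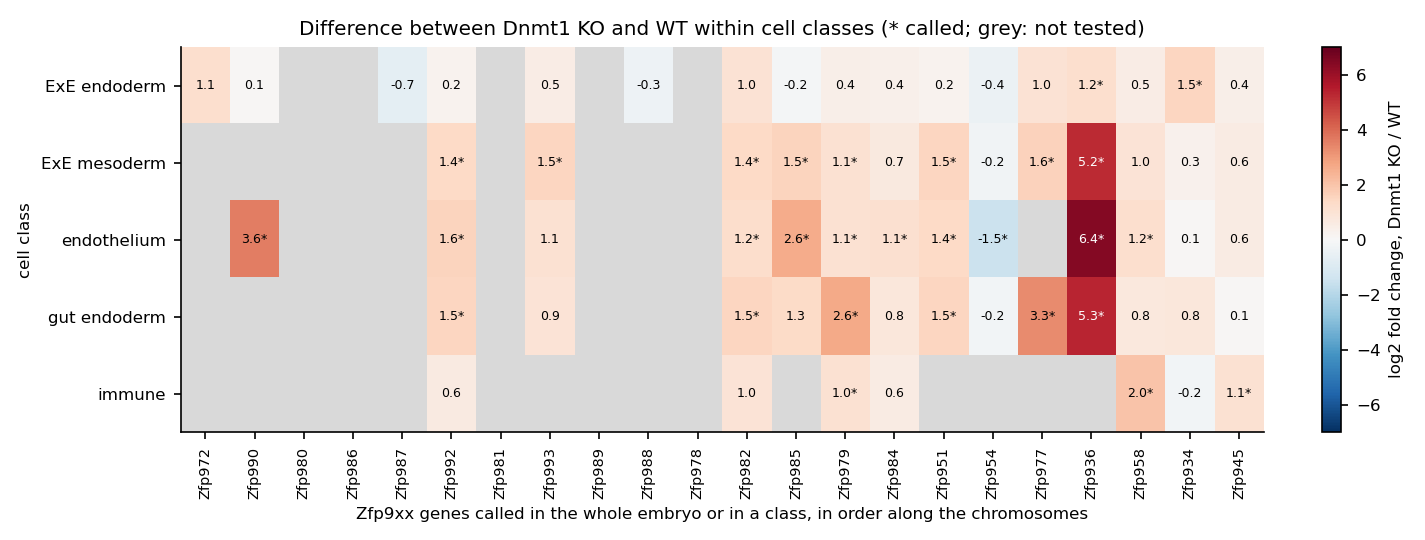
Log2 fold change in Dnmt1 KO against WT embryos of the members called in the whole embryo or in a class (columns) in the 5 cell classes (rows), printed and coloured on the log2 scale, with * for calls and grey where a member was not tested. Zfp936, Zfp951, Zfp979, Zfp982 and Zfp992 are called in several classes, and ExE endoderm holds 2 calls, Zfp934 and Zfp936.

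Zfp936 and Zfp979 were each called in 4 of the 5 classes, the most of any member. In ExE mesoderm Zfp936 stood at 0 to 0.172 CPM in WT and at 1.95, 3.08 and 1.53 CPM in Dnmt1 KO 1, 2 and 3 (log2 fold change 5.23, SE 0.59, adjusted p = 1.9e-06). In endothelium it stood at 0 to 0.112 CPM in WT and at 2.17, 3.36 and 2.90 CPM in Dnmt1 KO, from 1 and 30 UMIs in all, a pooled ratio of 146 (interval 24.3 to 5.97e+03). In these classes and in gut endoderm, with 0 to 0.215 CPM in WT and 5.29, 2.88 and 6.12 CPM in Dnmt1 KO, the gene was near 0 in WT and present in each mutant. Immune cells had 0 UMIs in 5 WT embryos and 40 in the 3 Dnmt1 KO embryos, which makes Zfp936 at least 5.53-fold higher with a floor of 3 UMIs over the WT group, and the exact 95% interval of the ratio, for counting error only, starts at 4.29. ExE endoderm differed in that WT cells already held it, at 1.79 to 3.44 CPM, and the mutants stood at 7.36, 6.99 and 4.31 CPM. The log2 fold change there was 1.19 (SE 0.25, adjusted p = 0.00193), lost without Dnmt1 KO 1 (1.07, adjusted p = 0.0216) or 2 (1.12, adjusted p = 0.0162).

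How far RNA of ExE ectoderm cells was found in other classes was read from marker genes. In ExE mesoderm, endothelium, gut endoderm and immune cells of the 3 Dnmt1 KO libraries, Zfp936 stood at 4.36 to 18.8% of its level in the ExE ectoderm-like cells of the same library. The ExE ectoderm markers Elf5 and Tfap2c, both trophoblast transcription factors, stood at 0 to 0.758% and 0 to 1.18% of theirs. Of 72 values of 6 detected markers, 69 were below that of Zfp936 in the same class and library, and a 7th marker, Tpbpa, was at 0. The 3 others were Gjb5 in ExE mesoderm of Dnmt1 KO 1 (15.5%, Zfp936 5.43%) and Dnmt1 KO 3 (7.44%, Zfp936 4.72%), and Esx1 in immune cells of Dnmt1 KO 3 (8.27%, Zfp936 7.48%). What part RNA from ExE ectoderm cells has in these values was not tested.

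Zfp992 was called higher in 3 of the 5 classes, and not in ExE endoderm or immune cells. Immune cells held its highest WT level (23.7 ± 6.58 CPM). In ExE mesoderm the mutants stood at 36.9, 36.2 and 35.4 CPM against 14.8 ± 2.01 CPM (SD, n = 7) in WT, in endothelium at 35.4, 37.2 and 44.2 CPM against 14.1 ± 2.88 CPM, and in gut endoderm at 28.3, 32.3 and 37.2 CPM against 12.2 ± 1.95 CPM. In ExE endoderm the mutant values of 6.25, 7.45 and 5.60 CPM lay about the WT mean of 5.73 ± 1.92 CPM. Zfp951 had the same order, with 5.40, 6.57 and 5.55 CPM in ExE mesoderm against 2.17 ± 0.488 CPM in WT, and with 4.91, 5.43 and 3.96 CPM in ExE endoderm against 4.44 ± 0.564 CPM. Zfp979, whose highest of these WT levels was in endothelium (23.7 ± 5.88 CPM), moved most in gut endoderm, from 1.39 to 4.48 CPM in WT to 14.9, 15.6 and 16.3 CPM. Its groups were also apart in endothelium, at 16.5 to 33.5 CPM in WT and 44.0, 49.3 and 43.5 CPM in Dnmt1 KO.

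**Figure D5:**
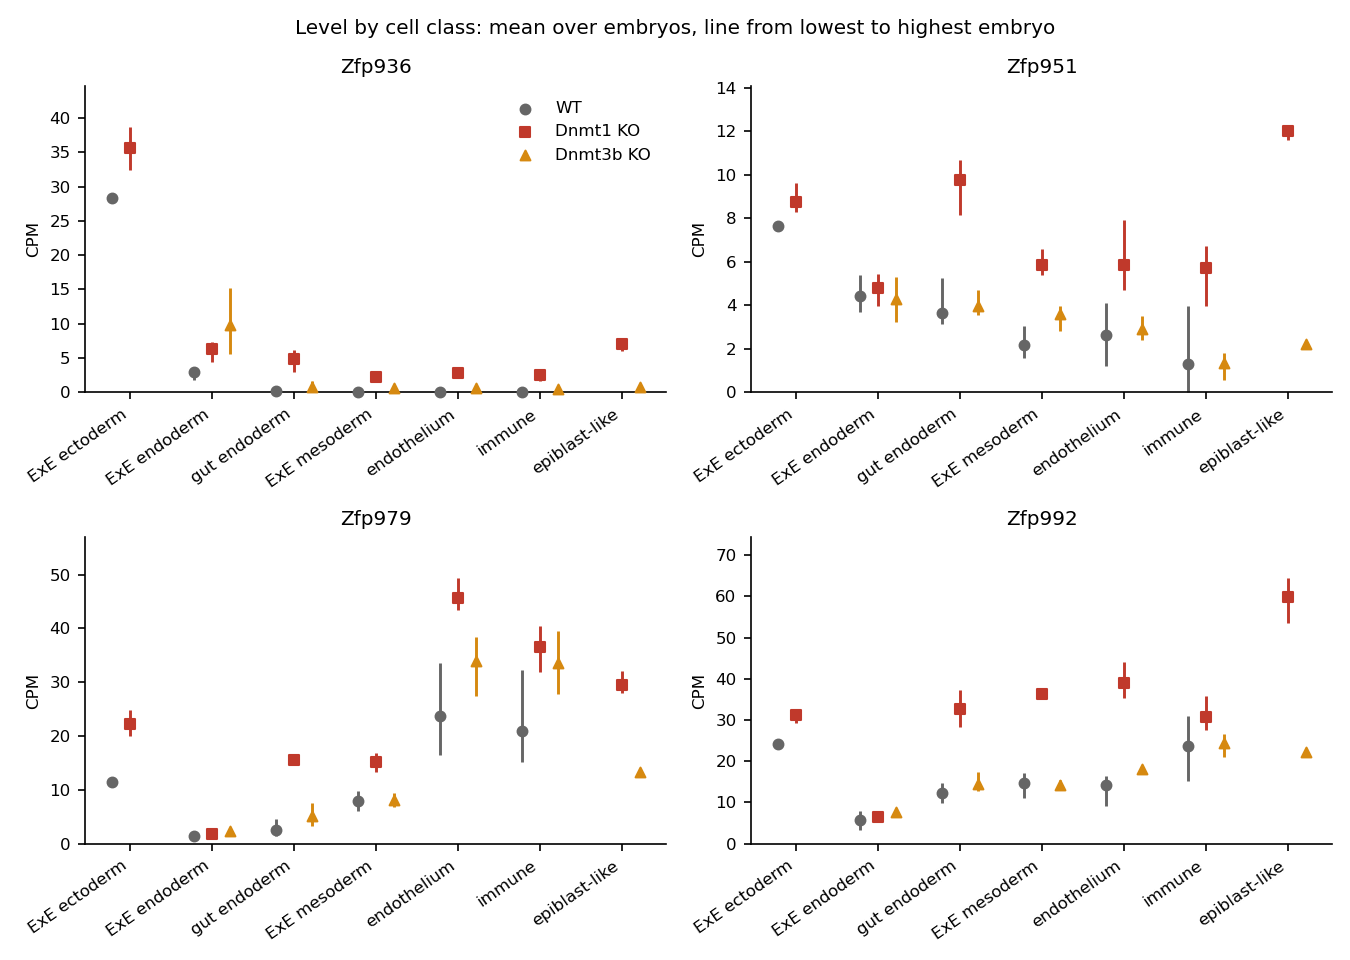
CPM (y axis) of Zfp936, Zfp951, Zfp979 and Zfp992 by cell class (x axis) in WT, Dnmt1 KO and Dnmt3b KO embryos. Points are group means and lines run from the lowest to the highest embryo, and for Zfp992 the ExE endoderm values of WT and Dnmt1 KO lie together while those of ExE mesoderm, endothelium and gut endoderm are apart.

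Summed over the chromosome 4 members, the classes differed in the same way. Endothelium held 46.2 to 74.2 CPM in WT and 129 to 137 CPM in Dnmt1 KO, and ExE mesoderm 33.4 to 51.4 CPM in WT and 85.7 to 91.9 CPM in Dnmt1 KO, with the groups well apart in both. In ExE endoderm the sums of 22.1 to 33.8 CPM in WT and 30.8 to 37.5 CPM in Dnmt1 KO overlapped. The Dnmt3a KO embryos stood at 36.2 to 38.3 CPM in that class, above each WT embryo, and the Dnmt3b KO samples at 32.1 to 42.3 CPM. These sums carry no test. Epiblast-like cells, which made up 7.55 to 15.1% of the cells of Dnmt1 KO libraries and at most 0.298% of those of WT libraries, held the highest sum of the Dnmt1 KO classes, at 156 to 175 CPM. No WT library had enough of these cells for a comparison. Zfp992 stood at 59.8 ± 5.58 CPM (SD, n = 3) and Zfp936 at 7.05 ± 0.954 CPM in them. The class was named from Pou5f1, Utf1, Fgf5, Slc7a3 and Pim2, which the paper reports as raised in Dnmt1 mutants across most cell types. The share of the class in Dnmt1 KO libraries and that rise cannot be told apart here.

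Zfp934 (chr13:62479827-62571199, minus strand), whose exons overlap those of Zfp935 on the same strand, was called higher in ExE endoderm alone of the 5 classes. In ExE endoderm it rose from 8.88 to 12.7 CPM in WT to 24.7 to 33.8 CPM in Dnmt1 KO (log2 fold change 1.52, SE 0.20, adjusted p = 2.5e-05). In ExE mesoderm the means were 10.2 CPM in WT and 12 CPM in Dnmt1 KO, and in endothelium 7.25 and 6.80 CPM. Gut endoderm held 13.5 to 18.4 CPM in WT and 22.4 to 24.2 CPM in Dnmt1 KO, apart but under the fold threshold (0.78, SE 0.13, adjusted p = 0.000156). Among the members called in 1 class were Zfp990 in endothelium (3.56, SE 0.67, adjusted p = 0.000505), from 12 UMIs in WT and 29 in Dnmt1 KO, and Zfp945 in immune cells (1.08), which was lost without each of 6 libraries. Zfp954 was the 1 member called lower, in endothelium (-1.5, SE 0.38, adjusted p = 0.00622), and was lost without each of 5 libraries, with adjusted p values up to 0.0591.

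Whether the Dnmt1 KO effect differed between classes was tested in 1 fit over each pair of classes, with the embryo as a block, a test added after the data were seen. ExE endoderm was set as the reference with the calls of each class already seen, so these counts are no independent support for a smaller effect there. Compared with ExE endoderm, the effect was larger for 5 of 48 members in ExE mesoderm (4.57% of all genes) and smaller for 1 (1.6%). It was larger for 4 of 47 in endothelium (2.87%) and smaller for 1 (1.73%), and larger for 5 of 48 in gut endoderm (2.43%) and smaller for 0 (1.01%). Zfp936 had log2 differences of 4.24 (SE 0.58), 5.70 (SE 0.68) and 4.22 (SE 0.57) in these classes, kept with each embryo left out. They rest on few WT UMIs of Zfp936, 3, 1 and 7 in these classes against 597 in ExE endoderm. Its pooled level rose from 2.92 to 6.91 CPM in ExE endoderm. In ExE mesoderm it rose from 0.0512 to 2.15 CPM, in endothelium from 0.019 to 2.78 CPM and in gut endoderm from 0.118 to 4.85 CPM. Zfp992 had 1.21 (SE 0.26), 1.35 (SE 0.22) and 1.28, of which that in endothelium was kept with each embryo left out. Zfp951 in ExE mesoderm (1.36, SE 0.21), Zfp985 in endothelium (2.85, SE 0.29) and Zfp979 in gut endoderm (2.29) were also kept, and the smaller effect of Zfp934 in ExE mesoderm (-1.16, SE 0.18) and endothelium (-1.43, SE 0.26) was kept as well. In gut endoderm the difference of Zfp934 was -0.77 (SE 0.17, adjusted p = 0.00759), under the threshold on size. The difference of Zfp972 in ExE mesoderm (2.82, SE 0.71) was lost in 9 of 10 fits that left out an embryo. That of Zfp985 in ExE mesoderm was lost in 5, and in gut endoderm those of Zfp977 and Zfp951 were lost in 7 and 2.

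Over 17 classes, 0 of 683 pairs of member and class were called higher or lower in Dnmt3a KO embryos, against 0.0906% and 0.0127% of all pairs. In Dnmt3b KO, 2 of 683 were higher (0.293%), against 0.629%, and 0 lower, against 0.0326%. Both were Zfp936. In ExE endoderm it stood at 9.84 ± 4.90 CPM (SD, n = 3) beside 2.88 ± 0.628 CPM in WT (log2 fold change 1.66, adjusted p = 0.000323), a call kept without each library. In endothelium, from 14 UMIs against 1 in WT, it was 4.05 (adjusted p = 0.00831), and was lost in 13 of 17 fits that left out a library. In Dnmt3a KO ExE endoderm, Zfp936 stood at 5.85 ± 1.31 CPM (SD, n = 4), and did not pass the test.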

How the data were processed

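Libraries were prepared from single embryos with the 10x Genomics 3′ v3 kit. The deposited counts are whole-number UMI counts per gene and barcode that the authors made with Cell Ranger, version 3.1.0 for 17 libraries and 5.0.0 for 1 per the file headers, on mm10. For 4 libraries (WT 1, Dnmt3a KO 1 and 13, Dnmt3b KO 11) the reference also held the human genome, and their mouse genes were used alone. Of 162336 barcodes, the 128881 with at least 1500 mouse UMIs were kept. Doublets (8871 barcodes, 6.88%) and cells with a high mitochondrial or ribosomal share stayed in, and were left out in an alternative.

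UMIs were summed per library and tested with edgeR 4.0.16 (R 4.3.3): TMM normalisation, filterByExpr, a quasi-likelihood fit of all 4 groups together, and Benjamini-Hochberg adjustment over all genes tested. Dnmt3b KO 1 and 2 were summed as 1 sample. The fold changes are effects fitted on counts, whereas CPM values are plain shares of a library. The embryos are separate animals, while litters and batches are not given in the sources used here. By Y-linked expression all Dnmt1 KO and Dnmt3a KO embryos, Dnmt3b KO 1 and 2, Dnmt3b KO 11 and WT 2 were male and the others female, so sex and genotype largely go together, and an alternative took Y-linked expression as a covariate.

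Cells were clustered with scanpy 1.11.5 and leidenalg 0.10.2 (1500 cells per library as reference, 2500 variable genes, 50 components, 30 neighbours, resolution 2) into 49 clusters, of which 37 were named from marker genes, giving 19 classes, and 26.1% of cells stayed unnamed. A class entered a comparison for libraries with at least 25 of its cells, and its sums were fitted as above. Pooled UMI ratios carry exact 95% intervals, which cover counting error only. The fits were tested on simulated data. Promoter windows were taken from RefSeq (GRCm38.p6), and coordinates of genes from GENCODE M21.

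The members and the gene lists were chosen with earlier results of these data known. The genes named are those called, the members nearest the threshold, the most abundant members in WT and the members called in most classes. Alternatives were DESeq2 1.42.0, no filter, a replicate block, covariates, subsets of cells and libraries, thinning to the smallest library, and leaving out each library in turn.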

Additional observations from a re-analysis of the deposited data

Results flagged for a closer look

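In 5 of 56 groups of values, 1 sample lay far from the others by Dixon's test, which by chance is met in about 1 of 20 groups. Zfp988 stood at 0.233 CPM in WT 1 beside 0.141 to 0.172 CPM in the other WT embryos. Zfp978 stood at 0.0169 CPM in WT 2 beside 0 to 0.00564 CPM. In Dnmt3a KO, Zfp934 stood at 14.6 CPM in embryo 14 beside 10.8 to 11.4 CPM, and Zfp993 at 2.09 CPM in embryo 2 beside 0.892 to 1.02 CPM. The sum of all members was 211 CPM in WT 1, a library counted on the combined reference, beside 251 to 279 CPM in the other WT embryos.

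The Dnmt1 KO effect differed between a cell class and ExE endoderm in 16 cases, by the test of the difference itself (edgeR, embryo as a block). The test and its reference class were set after the data were seen. In ExE mesoderm the log2 effect was larger by 4.24 for Zfp936, 2.82 for Zfp972, 1.88 for Zfp985, 1.36 for Zfp951 and 1.21 for Zfp992, and that of Zfp934 differed by -1.16. In endothelium it was larger by 5.70 for Zfp936, 3.74 for Zfp990, 2.85 for Zfp985 and 1.35 for Zfp992, and that of Zfp934 differed by -1.43. In gut endoderm it was larger by 4.22 for Zfp936, 2.29 for Zfp979, 2.28 for Zfp977, 1.28 for Zfp992 and 1.27 for Zfp951. Zfp936 was near 0 in WT cells of these classes, so its log2 differences rest on few WT UMIs. Of the 14 larger effects, 7 were kept with each embryo left out, and Zfp990 was kept in the 8 of its 10 fits that gave a value. The difference of Zfp977 in gut endoderm was lost in 7 fits, with adjusted p values up to 0.0723.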

How the results depend on the processing

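Of the alternatives to each count, 485 left it the same or near it, and 55 moved it further. Values of single genes are not among these. Many of the 24 counts were 0 in the main fit, and alternatives that again gave 0 are among the 485. In Dnmt1 KO against WT the count of members called higher was 15 to 16 with each library left out, and at an adjusted p below 0.05 with no threshold on fold change it was 31, with 1 lower. Replicate numbers did not pair the samples: over 13 pairs with the same number, correlations of deviations from the group means ran from -0.272 to 0.209 (median 0.0323), and 3 exceeded 0.1. With the replicate block 12 members were called, where Zfp972, Zfp986 and Zfp989 were lost, 5 against Dnmt3a KO, 4 against Dnmt3b KO and 0 in Dnmt3b KO against WT. The Dnmt3b KO count against WT was also 0 with the covariate for Y-linked expression, on libraries counted on the mouse reference alone and without Dnmt3b KO 11 and 12, which leaves 1 sample assumed to vary like the other groups, and 0 to 1 with each library left out. Dnmt1 KO against Dnmt3a KO gave 15 to 17 and against Dnmt3b KO 10 to 16 with each library left out, and the latter gave 9 on the mouse reference alone and 8 without Dnmt3b KO 11 and 12, both added after the data were seen.

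Within classes, Dnmt1 KO pairs called higher numbered 20 to 30 with each library left out, 10 with at least 50 cells, where 2 classes remain, and 69 at an adjusted p below 0.05 alone. The 1 pair called lower became 0 under DESeq2, with no filter, with 50 cells and with the study's filter and doublets left out, 3 at an adjusted p below 0.05, and 0 to 1 with a library left out. Dnmt3a KO gave 3 higher pairs at an adjusted p below 0.05. Dnmt3b KO gave 4 with no filter, 1 with 50 cells, 5 higher and 2 lower at an adjusted p below 0.05, and 1 to 4 with a library left out. With an embryo left out, effects larger than in ExE endoderm numbered 2 to 4 in ExE mesoderm, 3 to 4 in endothelium and 2 to 5 in gut endoderm, and smaller ones 1, 1 and 0 in each fit. The causes were not tested. Depth limits the members with few UMIs, and the classes with few cells.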
